A study of Mus musculus with 26 samples.

Results

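Chemokine receptors are the cell-surface receptors through which chemokines, small secreted proteins, direct the movement of white blood cells. The receptors described here were found by gene symbol, as probes whose name in the authors' tables begins with Ccr, Cxcr, Cx3cr or Ccrl followed by a digit. Described here are 6 probes of 25697 on the array, 1 for each of 6 genes of the 5838 named: Cx3cr1, Cxcr4, Ccrl2, Ccr3, Ccr7 and Cxcr6. Other receptors with such symbols, Ccr1 and Ccr2 among them, were not analysed here. Names came from the authors' 5 comparison tables, which list only probes that passed a score of at least 13.0 in size, so a named probe had already differed in at least 1 comparison. Of the 6 probes, 2 stood in all 5 tables and 2 in 1 table.

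The cells were bone marrow macrophages from male CD1 mice, aged 2 months, expanded with M-CSF at 100 ng/ml. M-CSF is the growth factor that keeps macrophages alive, and RANKL is the cytokine that turns them into osteoclasts, the cells that resorb bone. Wild-type (WT) mice were compared with mice lacking Cox2 (KO), the inducible cyclooxygenase upstream of prostaglandin E2 (PGE2), and the sources used here do not name the knockout allele. Experiment 1 lasted 1 day and held WT with M-CSF alone (n = 4), WT with M-CSF and RANKL (n = 3) and KO with M-CSF and RANKL (n = 3), both cytokines being at 30 ng/ml where combined. No source used here gives the dose of M-CSF in the group without RANKL, or of both cytokines in experiment 2. In experiment 2 all groups had M-CSF and RANKL for 3 days. They were WT, WT with the Cox2 inhibitor NS398 at 0.1 µM, KO, and KO with PGE2 at 1 µM (n = 4 each). The replicates are called biological, but whether each came from its own mouse is not said, so p-values measure the spread between these samples only. Ptgs2, the gene of Cox2, had no named probe, and the genotype check by its level was not analysed here.

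Values are linear probe intensities, taken as normalized by the authors within each experiment, so levels are compared within an experiment and within a probe only. Intensities ran from 116 to 71707 in experiment 1 and from 89.4 to 62833 in experiment 2, background included, with medians of 228 and 150.5. Within a group, Pearson's r between arrays, over probes, was 0.993 to 0.995 (experiment 1) and 0.972 to 0.995 (experiment 2). A change was called at an adjusted p under 0.05, from limma fitted over all probes kept. All 6 receptor probes passed the filter on low values in both experiments. The probes kept numbered 17211 in experiment 1 and 18961 in experiment 2.

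Most chemokine receptors span the membrane with a bundle of helices and signal through inhibitory G proteins, which sets off directed migration, and are then switched off by kinases and arrestins. Osteoclast precursors travel between blood, marrow and bone surface, and Cx3cr1, the receptor for fractalkine, and Cxcr4, the receptor for Cxcl12 that holds cells in the marrow, are among the receptors found on cells of this lineage. Ccrl2 is an atypical member: it binds the chemoattractant chemerin without signalling through G proteins and presents it to other cells. Of the 6 genes, 4 lie on chromosome 9 of the GRCm38.p6 build. Cxcr6 (chr9:123806477-123811754) and Ccr3 (chr9:124017825-124031692) lie within 225216 bases, while Cx3cr1 (chr9:120048683-120068296) and Ccrl2 (chr9:111054834-111057518) stand apart. Cxcr4 lies on chromosome 1 (chr1:128588199-128592299) and Ccr7 on chromosome 11 (chr11:99144199-99155077).

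The promoters of Ccrl2, Cx3cr1 and Cxcr4 are shown because Ccrl2 moved opposite to Cx3cr1 in every comparison that called both, and Cxcr4 with Cx3cr1 on day 1 under RANKL and in KO cells. Each runs from 250 bases before the gene's start to 50 bases after it, from RefSeq on GRCm38.p6, 5′ to 3′ along the gene's strand, which is the minus strand for all 3. Capitals mark matches to 4 motifs searched on both strands: TGACG (the core of a cAMP response element), TGANTCA (AP-1), GAGGAA (a core of PU.1 sites) and the NF-kappaB consensus. For Ccrl2 the most upstream of 3 listed starts is shown (chr9:111057469-111057768).
Ccrl2: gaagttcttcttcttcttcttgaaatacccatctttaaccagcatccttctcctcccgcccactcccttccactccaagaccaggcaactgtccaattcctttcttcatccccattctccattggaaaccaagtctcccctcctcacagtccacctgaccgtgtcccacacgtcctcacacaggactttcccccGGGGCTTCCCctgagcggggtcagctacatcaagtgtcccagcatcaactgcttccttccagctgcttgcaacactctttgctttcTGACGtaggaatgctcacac
Cx3cr1 (chr9:120068247-120068546): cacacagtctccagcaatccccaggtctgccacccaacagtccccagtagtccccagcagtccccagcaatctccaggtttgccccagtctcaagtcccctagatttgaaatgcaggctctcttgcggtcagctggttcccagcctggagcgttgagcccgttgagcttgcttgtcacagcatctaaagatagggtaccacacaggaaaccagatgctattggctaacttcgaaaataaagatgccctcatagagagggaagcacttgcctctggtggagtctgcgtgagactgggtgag
Cxcr4 (chr1:128592250-128592549): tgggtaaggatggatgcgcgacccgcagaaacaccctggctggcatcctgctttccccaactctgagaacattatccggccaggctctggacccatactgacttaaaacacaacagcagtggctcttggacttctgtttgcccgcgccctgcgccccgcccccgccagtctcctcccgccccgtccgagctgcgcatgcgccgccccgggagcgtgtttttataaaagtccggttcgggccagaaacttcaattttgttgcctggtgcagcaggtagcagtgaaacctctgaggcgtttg
The Ccrl2 window held an NF-kappaB match beginning at position -56 from the gene's start, which reads as a match on both strands, and a TGACG at position 31. The windows of Cx3cr1 and Cxcr4 held none of the 4 motifs. Among 27025 mouse promoter windows of the same length, 8.18% held the NF-kappaB consensus, 21.0% TGACG, 7.93% TGANTCA and 28.3% GAGGAA. The table used had windows for Ccr3 and Cxcr6 too. The Ccr3 window (chr9:124021721-124022020) surrounds a start that lies inside the gene's span given above, and its positions count from that start. It held a TGANTCA match at -144 and an NF-kappaB match at -179 that overlaps a GAGGAA match at -181. The Cxcr6 window held a TGACG at -24. A match is a description of letters and not of a bound site. Ccr7 is named only.

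Cx3cr1 was high in WT cells with M-CSF alone, near background in WT cells with RANKL, and in between in KO cells with RANKL. Its intensities with M-CSF alone were 676, 750.4, 790.0 and 806. They were 212, 221 and 250.5 in WT cells with RANKL, and 458, 527 and 544 in KO cells with RANKL. The 3 groups did not overlap, as the plot of day 1 intensities shows. With RANKL the mean was 228 ± 20.1 (SD, n = 3) in WT cells, where the authors' deposited table gives a detection p of 0.094, not above background. The means were 755.6 ± 57.9 (SD, n = 4) with M-CSF alone and 509 ± 45.5 (SD, n = 3) in KO cells. Cx3cr1 was thus at least 3.32-fold lower in WT cells with RANKL than with M-CSF alone (log2 change -1.73, SE 0.10, limma adjusted p 4.87e-12). It was at least 2.23-fold higher in KO than in WT cells with RANKL (log2 change 1.16, SE 0.10, limma adjusted p 1.27e-08). KO cells with RANKL were still below WT cells without it, by -0.57 on the log2 scale (SE 0.10, limma adjusted p 1.92e-04). These comparisons share arrays, so they are given side by side and not as separate evidence. In bulk RNA, fewer cells that carry a receptor and less of its RNA per cell cannot be told apart, here and for every probe below.

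On day 3 Cx3cr1 was above background with NS398 and in KO cells, and not above it in WT cells or in KO cells with PGE2. WT arrays read 113, 147.5, 148 and 152, and KO arrays with PGE2 read 125, 128, 129 and 147.1. In the authors' deposited tables the detection p was 0.271 in WT cells and 0.583 in KO cells with PGE2. WT arrays with NS398 read 247, 249.5, 254 and 276, and KO arrays without PGE2 read 195, 217, 274 and 287.5. Every array of the NS398 and KO groups stood above every array of the other 2 groups. The mean was 243 ± 44.2 (SD, n = 4) in KO cells and 140.0 ± 18.3 (SD, n = 4) in WT cells, at least 1.69-fold higher in KO cells (log2 change 0.79, SE 0.12, limma adjusted p 5.34e-04). NS398 gave 257 ± 13.2 (SD, n = 4), at least 1.81-fold above WT cells (log2 change 0.88, SE 0.12, limma adjusted p 1.80e-04). PGE2 in KO cells gave 132 ± 9.99 (SD, n = 4), at least 1.79-fold below KO cells without it (log2 change -0.86, SE 0.12, limma adjusted p 1.66e-04). KO cells with PGE2 and WT cells differed by -0.07 on the log2 scale (95% interval -0.33 to 0.18), with neither group above background.

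**Figure D1:**
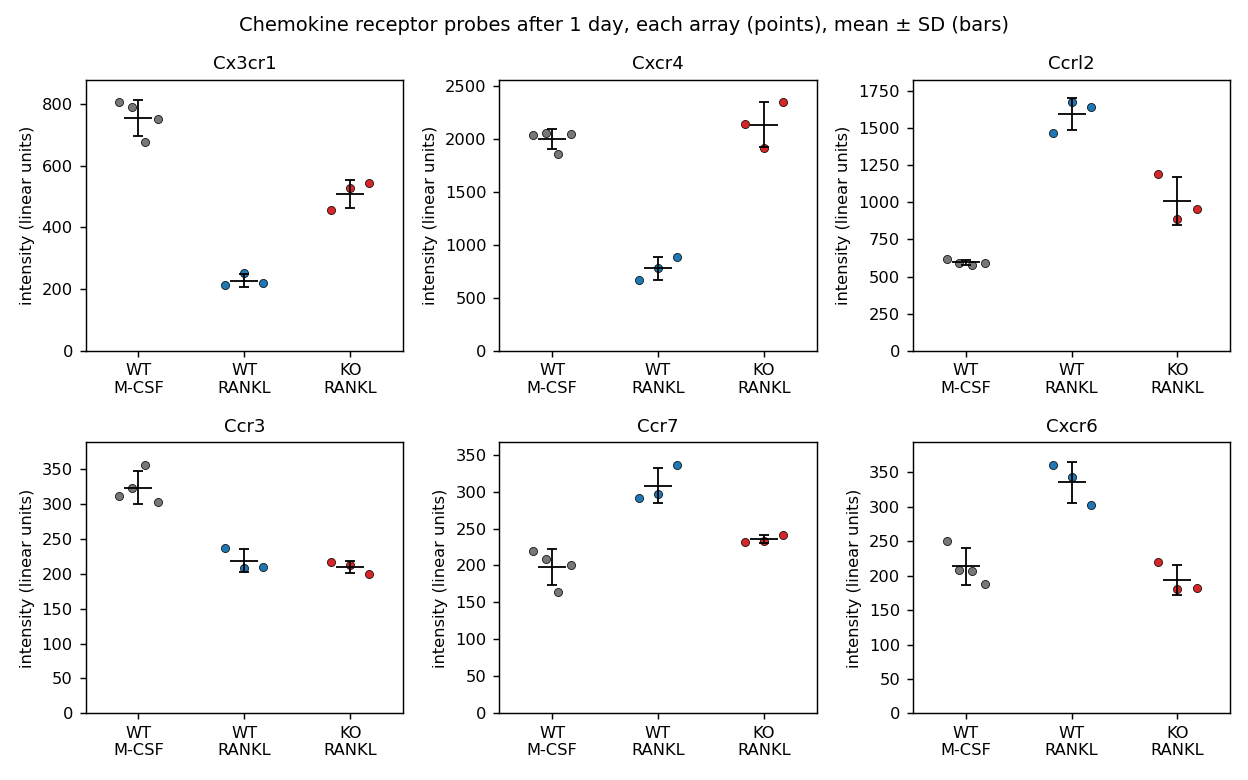
Intensity (linear units) of the 6 receptor probes after 1 day, 1 panel a probe with its own axis from 0; points are arrays, bars the mean ± SD (WT with M-CSF alone n = 4, WT with RANKL n = 3, KO with RANKL n = 3). Cx3cr1 and Cxcr4 fall in WT cells with RANKL and are higher in KO cells, while Ccrl2 rises in WT cells with RANKL and is lower in KO cells.

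Cxcr4 differed from Cx3cr1 in that its level in KO cells with RANKL on day 1 was close to that in WT cells without RANKL. Its intensities were 1855, 2035, 2049 and 2054 with M-CSF alone, 666, 783 and 885 in WT cells with RANKL, and 1916, 2141 and 2344 in KO cells with RANKL. The WT arrays with RANKL stood below all others, and the other 2 groups overlapped. With RANKL the mean in WT cells fell from 1998 ± 95.9 (SD, n = 4) to 778 ± 109 (SD, n = 3), 2.58-fold (log2 change -1.37, SE 0.10, limma adjusted p 5.49e-10). KO cells with RANKL, at 2134 ± 214 (SD, n = 3), were 2.75-fold above WT cells with RANKL (log2 change 1.46, SE 0.11, limma adjusted p 9.00e-10). Against WT cells with M-CSF alone they differed by 0.09 on the log2 scale (95% interval -0.12 to 0.30, limma adjusted p 0.65). That interval bounds the difference, and does not show that the levels were equal.

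On day 3 no Cxcr4 difference passed the test. WT arrays read 345, 369.8, 512 and 599 and were widely spread, and KO arrays read 497, 563, 594 and 613. Arrays with NS398 read 457, 461, 602 and 708, and KO arrays with PGE2 read 396, 405, 416 and 419. The KO arrays with PGE2 stood below the KO arrays without it, with no overlap (409 ± 10.3 against 567 ± 51.0, SD, n = 4 each), by -0.47 on the log2 scale (SE 0.16, limma adjusted p 0.073). Without WT replicate 4 or WT replicate 3 in the shared fit this adjusted p was 0.0397 and 0.0497. KO against WT gave 0.35 (95% interval -0.0025 to 0.69, limma adjusted p 0.28) and NS398 gave 0.30 (95% interval -0.05 to 0.65, limma adjusted p 0.407) on the log2 scale.

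Ccrl2, the atypical chemerin-binding receptor that macrophages raise under inflammatory stimuli, moved against Cx3cr1. Its intensities on day 1 were 581, 588.5, 589 and 619.8 with M-CSF alone, 1468, 1643 and 1674 in WT cells with RANKL, and 888, 952 and 1194 in KO cells with RANKL. The 3 groups did not overlap, with KO cells in between. RANKL raised the mean from 594 ± 17.3 (SD, n = 4) to 1595 ± 111 (SD, n = 3), 2.68-fold (log2 change 1.42, SE 0.10, limma adjusted p 2.04e-10). KO cells with RANKL, at 1011 ± 161 (SD, n = 3), were 1.59-fold below WT cells with RANKL (log2 change -0.67, SE 0.11, limma adjusted p 3.85e-05). They were 1.69-fold above WT cells with M-CSF alone (log2 change 0.76, SE 0.10, limma adjusted p 1.01e-05).

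On day 3 Ccrl2 had the widest differences of the 6 probes. WT arrays read 1421, 1504.5, 1898 and 2206.5, and KO arrays with PGE2 read 1244, 1378, 1468 and 1673. KO arrays without PGE2 read 389.6, 406, 435 and 453, and WT arrays with NS398 read 275, 290.0, 323 and 332. The high and low pairs of groups did not overlap, and within the low pair every NS398 array was below every KO array. KO cells, at 421 ± 28.4, were 4.12-fold below WT cells, at 1758 ± 364 (SD, n = 4 each; log2 change -2.04, SE 0.13, limma adjusted p 3.09e-08). NS398, at 305 ± 26.8 (SD, n = 4), was 5.69-fold below WT cells (log2 change -2.51, SE 0.13, limma adjusted p 2.98e-09). PGE2 in KO cells gave 1441 ± 180 (SD, n = 4), 3.41-fold above KO cells without it (log2 change 1.77, SE 0.13, limma adjusted p 1.22e-07). KO cells with PGE2 differed from WT cells by -0.27 (95% interval -0.54 to -0.0025, limma adjusted p 0.45), and KO from NS398 by 0.47 (95% interval 0.20 to 0.74, limma adjusted p 0.149).

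**Figure D2:**
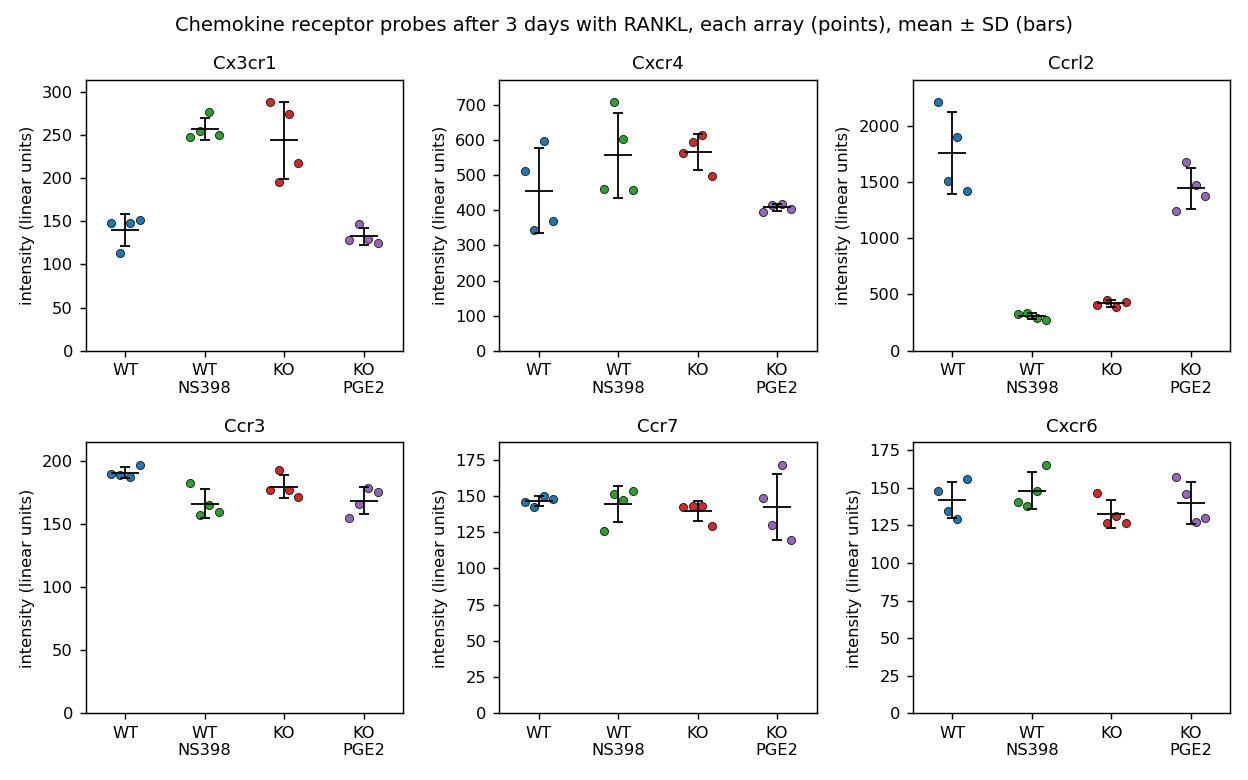
Intensity (linear units) of the 6 receptor probes after 3 days with M-CSF and RANKL, 1 panel a probe with its own axis from 0; points are arrays, bars the mean ± SD (n = 4 a group). For Ccrl2 the WT arrays and the KO arrays with PGE2 are high and the NS398 and KO arrays low, and for Cx3cr1 the order is turned.

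Ccr3, Ccr7 and Cxcr6 were dim. Ccr3, the eotaxin receptor known from eosinophils, read 302, 311.5, 323 and 355.5 with M-CSF alone. It read 209, 209 and 237 in WT cells and 199.6, 212 and 217 in KO cells with RANKL, not above background in either (detection p 0.133 and 0.184 in the authors' deposited tables). It was at least 1.48-fold lower in WT cells with RANKL than with M-CSF alone (log2 change -0.57, limma adjusted p 2.56e-05) and at least 1.54-fold lower in KO cells (log2 change -0.62, limma adjusted p 2.77e-05). Ccr7, which guides dendritic and T cells to lymph nodes, was above background only in WT cells with RANKL, at 291, 297 and 336. It read 164, 200.3, 209 and 219 with M-CSF alone, at least 1.49-fold lower (log2 change for RANKL 0.64, limma adjusted p 2.13e-05). In KO cells with RANKL Ccr7 read 232, 233 and 241, at least 1.31-fold lower than in WT cells (log2 change -0.39, limma adjusted p 0.00722). Cxcr6, the receptor for Cxcl16, was likewise above background only in WT cells with RANKL on that day, at 302, 343 and 360.5. With M-CSF alone it read 188, 207, 208 and 250.1 and in KO cells 181, 181 and 219, at least 1.54-fold and 1.71-fold lower (log2 changes 0.66 for RANKL and -0.79 for KO, limma adjusted p 3.59e-05 and 1.10e-05).

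On day 3 none of the 3 dim receptors was called in any comparison. Their arrays read 155 to 197 for Ccr3, 119 to 171 for Ccr7 and 126.5 to 165 for Cxcr6 over all 16 arrays, and the tables give no detection p for them there. The NS398 arrays of Ccr3 stood just below the WT arrays, by -0.20 on the log2 scale (SE 0.07, limma adjusted p 0.101, or 0.0484 without NS398 replicate 13).

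Counted over the 6 probes, RANKL in WT cells on day 1 gave 6 calls, 3 higher (Ccrl2, Ccr7, Cxcr6) and 3 lower (Cx3cr1, Cxcr4, Ccr3). All 6 had been listed by the authors for this same comparison of the same arrays, Ccr3 and Ccr7 for no other. These 6 calls thus largely follow from how the probes were found, and are no separate result about the family. The background was 37.7% of all probes tested and 75.8% of the 7230 probes with a gene name, and only named probes could be found. KO against WT with RANKL on day 1 gave 5 calls, 2 higher and 3 lower, against 33.8% of all and 70.3% of named probes. Of the 5, the authors had listed all but Ccr7 for this comparison. KO cells with RANKL against WT cells with M-CSF alone gave 3, 1 higher and 2 lower, against 15.7% and 31.8%. No test of these counts against the named probes was made, and with 6 probes they are given as a description. The median log2 change of the 6 was 0.04 under RANKL and -0.22 for KO, beside -0.10 and 0.09 over named probes.

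On day 3 KO against WT gave 2 calls among the 6, Cx3cr1 higher and Ccrl2 lower, against 6.37% of all probes tested and 16.2% of the 7133 named ones. NS398 gave 2, again Cx3cr1 higher and Ccrl2 lower, against 5.94% and 15.1%. PGE2 in KO cells gave 2, Ccrl2 higher and Cx3cr1 lower, against 13.5% and 33%. In limma, KO cells with PGE2 against WT cells gave 0 calls, where 1.2% of all and 3.1% of named probes were called. At an unadjusted p under 0.05 there were 2 of the 6, Ccr3 and Ccrl2, beside 20.8% of named probes at that same threshold. KO against NS398 gave 0 calls in limma, where 0.738% and 1.91% were called. At an unadjusted p under 0.05 there was 1 of the 6, Ccrl2, beside 14.9% of named probes. The 3 comparisons with calls share arrays (WT in the comparisons of KO and NS398, KO in those of KO and PGE2). The authors had listed Cx3cr1 and Ccrl2 for each of the 3, on the same arrays. Of the 4 arrays of KO with PGE2, 3 carry a suffix r in their title number, whose meaning no source used here gives, and 1 array each of NS398 and KO carries it. Without those arrays, which leaves 1 array of KO with PGE2, whose spread is then assumed to be that of the other groups, Ccrl2 and Cx3cr1 were still called under PGE2.

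**Figure D3:**
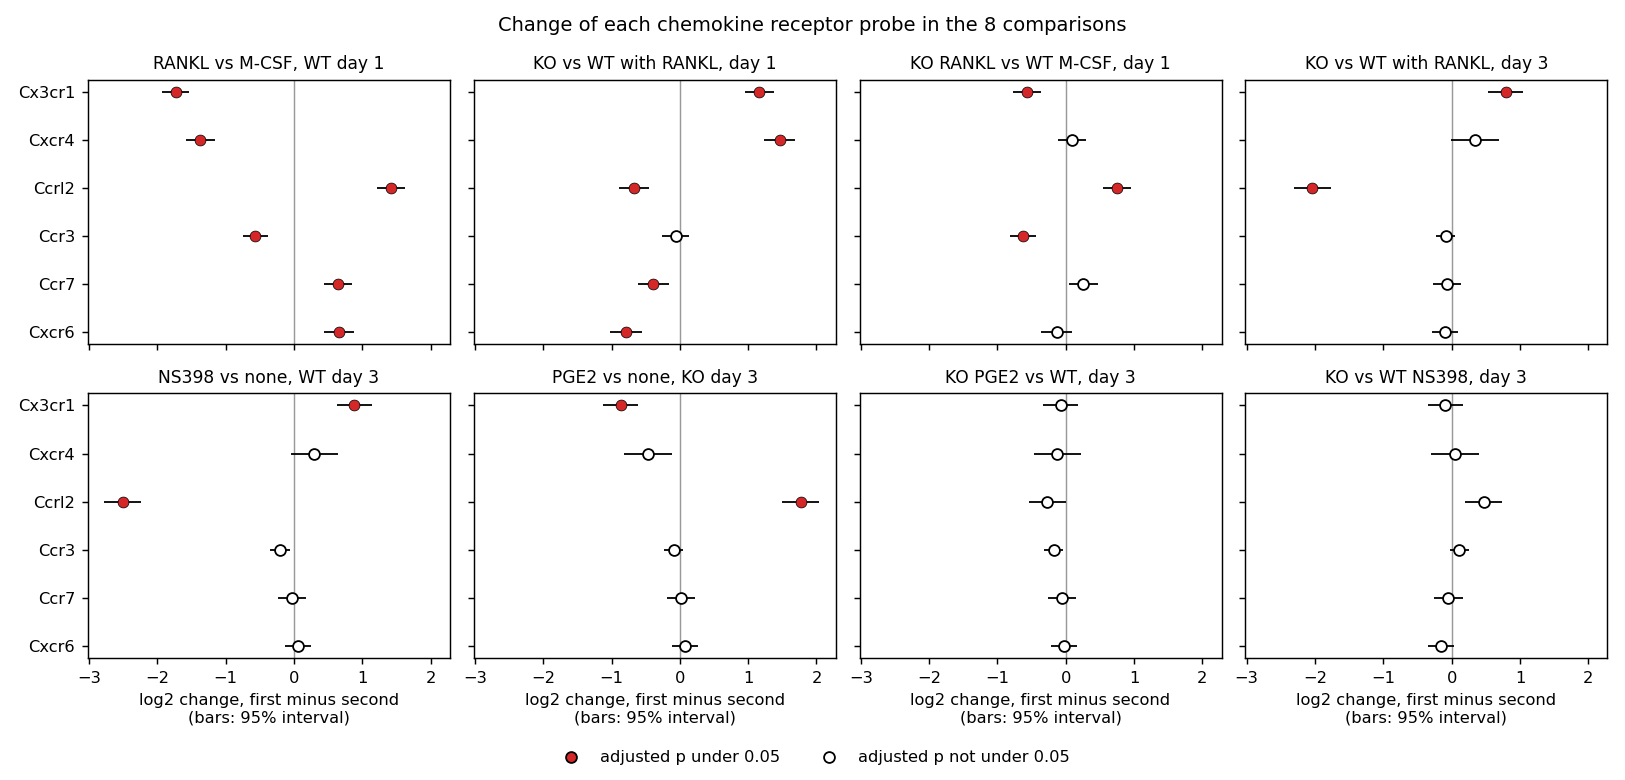
Log2 change (horizontal axis, group named before minus group named after "vs") of each receptor probe in the 8 comparisons, from limma; bars are 95% intervals, filled points have an adjusted p under 0.05. Ccrl2 lies opposite to Cx3cr1 wherever both were called, and no point is filled in the last 2 panels.

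Chemokines, the ligands of the receptor family, were read for 24 of 36 genes listed. RANKL in WT cells on day 1 raised 14 and lowered 8, where 75.8% of named probes were called. The median log2 change of the 24 was 0.76, beside -0.10 over named probes. Leading by p were Cxcl13, Ccl5, Ccl7 and Cxcl9. Cxcl13, a B cell attractant, and Cxcl9, a T cell attractant, were not above background with M-CSF alone (detection p 0.847 and 0.247 in the authors' deposited tables), so their folds are bounds. Cxcl13 rose from 170 to 3276 in mean intensity, at least 16.7-fold, and Cxcl9 from 201 to 6797, at least 32.5-fold. Ccl5 rose from 2512 to 64020 (log2 change 4.67), near the highest intensity of the experiment, and the monocyte attractant Ccl7 fell from 4507 to 799 (-2.50). KO cells with RANKL had 7 higher and 14 lower than WT cells, where 70.3% of named probes were called. The median was -0.50 beside 0.09, and Ccl5 led by p (2034 in KO, log2 change -4.99). Cxcl13 (229 in KO) and Ppbp, a neutrophil attractant (196 in KO, 1011 in WT), were not above background in KO cells and at least 14.3-fold and 5.15-fold lower there. Cxcl9, at 398 in KO cells, was lower by -4.24 on the log2 scale. Each of these had a limma adjusted p of 4.99e-12 or lower.

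The ligands of the receptors above were picked out by their known pairing after the values had been seen. Cxcl12, the Cxcr4 ligand, differed by -0.04 with RANKL in WT cells (limma adjusted p 0.739) and was higher in KO cells on day 1 (log2 change 0.47, limma adjusted p 3.52e-04). In WT cells with RANKL Cxcl12 was not above background (the authors' detection p 0.055). It was thus at least 1.39-fold higher in KO than in WT cells with RANKL. Cxcl16, the Cxcr6 ligand, rose with RANKL (log2 change 1.39) and was lower in KO cells (-0.41), as Cxcr6 was. Ccl19, a Ccr7 ligand, rose with RANKL (0.76) and was lower in KO cells (-0.80), as Ccr7 was, and was above background in WT cells with RANKL only. Ccl24, a Ccr3 ligand, fell with RANKL (-1.02), as Ccr3 did. In KO cells Ccl24 was higher than in WT cells (0.32, limma adjusted p 0.0394), with neither group above background, while Ccr3 differed by -0.06 (limma adjusted p 0.701). Ccl5, which also binds Ccr3, rose with RANKL, against Ccr3. Not every ligand of each receptor is named here. Cx3cl1 (fractalkine), the Cx3cr1 ligand, was listed but had no named probe.

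Over the chemokines on day 3, of 23 kept, KO cells had 1 higher and 9 lower, NS398 2 higher and 7 lower, and PGE2 12 higher and 1 lower. The medians were -0.26, -0.29 and 0.49 on the log2 scale, beside 0.02, 0.01 and -0.01 over named probes. Of the named probes, 16.2%, 15.1% and 33% were called in these comparisons. Cxcl1, a neutrophil attractant, led each by p, at 25980 in WT, 5285 in KO, 3007 with NS398 and 39030 in KO cells with PGE2 (log2 change -2.29, -3.14 and 2.87, limma adjusted p 8.17e-08, 2.12e-09 and 5.88e-09). Ccl3, an inflammatory chemokine of macrophages, came next by p in each, at 3101 in WT, 899.8 in KO, 1422 with NS398 and 5655 in KO cells with PGE2 (log2 change -1.79, -1.18 and 2.64, limma adjusted p 2.53e-05, 0.00144 and 2.61e-07).

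Genes that carry or end the receptors' signal were read for 20 of 38 listed. Under RANKL in WT cells 6 rose and 10 fell (median -0.25 beside -0.10 over named probes), and in KO cells with RANKL 10 were higher and 4 lower than in WT cells (median 0.24 beside 0.09). In these comparisons 75.8% and 70.3% of named probes were called. Rgs1, which speeds up the switching off of G proteins and so damps chemokine responses, led both by p. It fell from 10930 to 816 with RANKL (log2 change -3.74) and stood at 10360 in KO cells (log2 change 3.65, limma adjusted p 3.87e-15). On day 3 Rgs1 was 492 in WT cells, 1572 with NS398 (log2 change 1.69, limma adjusted p 2.05e-06), 684 in KO cells (0.50, limma adjusted p 0.0683) and 248 in KO cells with PGE2 (-1.47 against KO, limma adjusted p 8.02e-06). Of the 20, calls on day 3 numbered 1 for KO and 3 for NS398, all higher, and 5 for PGE2, all lower, where 16.2%, 15.1% and 33% of named probes were called.

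Other chemoattractant receptors were read for 9 of 18 listed, and split. Fpr2 and Fpr1, receptors for formyl peptides, rose with RANKL in WT cells on day 1. Fpr2 went from 1407 to 69450 (log2 change 5.64), near the highest intensity of experiment 1 (71707), and stood at 1399 in KO cells (-5.64). Fpr1 was not above background with M-CSF alone, at 222, or in KO cells, at 189.7. In WT cells with RANKL it read 2085, at least 9.36-fold and 10.8-fold above them. The nucleotide receptor P2ry6 and the lysophosphatidic acid receptor Lpar6 fell with RANKL (-0.99 and -0.90) and were higher in KO cells (1.11 and 1.38, limma adjusted p 3.99e-09 and 1.29e-10). Of the 9, 3 rose and 5 fell with RANKL, and 4 were higher and 4 lower in KO cells, where 75.8% and 70.3% of named probes were called. On day 3 KO gave 2 higher and 2 lower, NS398 1 higher and 2 lower, and PGE2 2 higher and 3 lower. Of named probes, 16.2%, 15.1% and 33% were called in these comparisons. Lpar6 was 688 in WT cells, 3061 in KO cells, 2242 with NS398 and 870 in KO cells with PGE2 on day 3.

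Markers of the cells a marrow culture can hold moved too. Of the osteoclast markers, 8 of 10 were named, and 6 rose with RANKL in WT cells on day 1, with summed intensities of 9782 to 11290 with M-CSF alone and 110600 to 115500 with RANKL. KO cells with RANKL summed to 67150 to 93680, with 4 markers lower than WT. Macrophage markers, 6 of 8 named, summed to 130700 to 142900, 126000 to 128900 and 133200 to 139700 in those groups. Single macrophage markers moved, with 3 higher and 2 lower under RANKL in WT cells, and 1 higher and 3 lower in KO than in WT cells. Neutrophil markers, 8 of 10 named, summed to 11040 to 11850 with M-CSF alone, 84270 to 85880 in WT cells with RANKL and 42660 to 58080 in KO cells with RANKL. That sum is mostly S100a8 and S100a9, lower in KO cells (S100a8 26870 against 63230), while 5 of the 8 neutrophil markers were higher in KO cells and 3 lower (median log2 change 1.12). Ltf, a granule protein, fell with RANKL in WT cells from 719.6 to 213 (not above background) and stood at 4142 in KO cells, and Ngp read 494.5, 252 and 2115. Monocyte markers, 3 of 5 named, summed to 1293 to 1552, 8573 to 8879 and 3037 to 3714. Of these 3, 2 were lower and 1 higher in KO than in WT cells. Stromal markers, 5 of 9 named, summed to 1871 to 1952, 2863 to 3150 and 5338 to 5887, with 4 higher and 1 lower in KO cells. Dendritic markers, 3 of 7 named, summed to 2278 to 2844, 2041 to 2168 and 1749 to 1836. Of these, 1 rose and 2 fell with RANKL in WT cells, and 1 was higher and 1 lower in KO than in WT cells. T and NK cell markers, 2 of 11 named, summed to 433 to 475, 614 to 694 and 471 to 490.3. Cd3g, among them, was not above background with M-CSF alone or in KO cells. The T and NK cell sum was highest in WT cells with RANKL, as Ccr7 and Cxcr6 were, and as the osteoclast, neutrophil and monocyte sums were. Eosinophil, basophil and mast cell markers, 2 of 8 named, summed to 493 to 587, 1853 to 2012 and 525 to 552.5. With RANKL in WT cells the 2 moved apart, and the sum followed Hdc, the histamine-forming enzyme (229, 1723 and 336.5). Prg2, the other marker, was above background with M-CSF alone only (the authors' detection p 0.00501, 0.477 and 0.263). Against M-CSF alone, Prg2 was at least 1.532-fold lower in WT cells and 1.502-fold lower in KO cells with RANKL. Ccr3 was also lower in both. Of named probes, 75.8% were called with RANKL in WT cells on day 1, and 70.3% in KO against WT cells with RANKL. The part of the cell types above in the receptor differences was not tested.

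On day 3 the osteoclast sums overlapped across groups (66960 to 86740 in WT, 66880 to 80550 in KO, 56500 to 71850 with NS398, 60610 to 78330 in KO cells with PGE2). Ctsk and Mmp9 make up most of these sums, and single markers moved. Ocstamp, needed for osteoclast fusion, changed in the direction of Ccrl2, by -0.61 for KO, -0.44 for NS398 and 0.66 for PGE2 on the log2 scale (limma adjusted p 5.27e-04, 0.00729 and 1.65e-04), and Calcr and Nfatc1 were lower with PGE2 (-0.67 and -0.61). Neutrophil sums were 2508 to 3786 in WT, 1289 to 1526 in KO, 1366 to 2048 with NS398 and 4689 to 8765 in KO cells with PGE2, and stromal sums were 1221 to 1546, 936 to 1004, 776 to 818 and 1773 to 2348. Dendritic markers, 3 of 7 named, summed to 1588 to 1865 in WT, 735 to 850.3 in KO, 642 to 789 with NS398 and 1005 to 1272 in KO cells with PGE2. Of the dendritic markers, Cd83 was lower in KO and NS398 cells (1286 in WT, 525 in KO, 414 with NS398), and read 546.6 in KO cells with PGE2 (limma adjusted p 0.799 against KO). Eosinophil, basophil and mast cell sums, of 2 markers, were 366 to 403 in WT, 293 to 308 in KO, 275 to 331 with NS398 and 368 to 408 in KO cells with PGE2. Hdc, 1 of the 2, was not above background in KO or NS398 cells (the authors' detection p 0.311 and 0.296). In each of these groups 1 of the 2 was called lower than in WT cells. The neutrophil, stromal, dendritic and eosinophil, basophil and mast cell sums were lower in the KO and NS398 groups than in the other 2, with no overlap, as Ccrl2 was. Fewer single markers were called lower than WT, for KO and NS398 2 and 1 of 8 neutrophil, 2 and 4 of 5 stromal, and 1 and 2 of 3 dendritic markers. Of named probes, 16.2% and 15.1% were called in these comparisons. The part of these cell types in the Ccrl2 differences was not tested. Macrophage sums overlapped across the day 3 groups (49580 to 63610 in WT, 50490 to 57270 in KO, 42410 to 50680 with NS398, 48100 to 72580 in KO cells with PGE2). Monocyte sums overlapped between WT (425.5 to 479), KO (413.6 to 436.4) and NS398 (403.7 to 461.4), and were higher in KO cells with PGE2 (515.7 to 602.5). T and NK cell sums overlapped across the day 3 groups, and B cell markers had 0 of 6 named.

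Patterns most like the receptors' were sought among all named genes, for the 2 receptor probes of each experiment with the widest range of group means. Over the 10 arrays of experiment 1, Cx3cr1 was most like Por (Pearson r 0.996), Zfp532 (0.995) and Akr1a1 (0.994), and Cxcr4 most like Itgb5 (0.994), Nelfe (0.993) and Tmc6 (0.991). Over the 16 arrays of experiment 2, Ccrl2 was most like Adora2b (0.991), Tnfaip2 (0.989) and Tnip1 (0.982), and Cx3cr1 most like Tmem51 (0.956), followed by Gadd45g and Arhgef4. The arrays fall into groups and were taken as normalized together, so these values describe shared group patterns.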

How the data were processed

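Total RNA of 26 cultures was read on Illumina bead arrays. The submitters' processing notes name GenomeStudio and give no version of it. The authors deposited linear intensity values. Arrays of an experiment share nearly the same distribution and no value is near 0, so these were taken as quantile normalized within the experiment and not background corrected, and folds of them as smaller than folds of the RNA. The authors' comparison tables hold, per the file headers, the ratio of group means, each group's detection p-value, and the DiffScore, the score by which probes were listed. They name 7244 of 25697 probes, and only these could be searched.

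Values were taken as log2, with a floor of 32 that no value reached. Probes above an array's 40th percentile in at least 3 (experiment 1) or 4 (experiment 2) arrays were kept and fitted in limma 3.58.1 (R 4.3.3), 1 mean per group over all arrays of an experiment, two-sided, with Benjamini-Hochberg adjustment over all probes kept. The fit was tested on simulated data. A probe with a detection p of 0.05 or more in a group was taken as not above background there, and its fold as a lower bound, set against the higher of its own signal and the lowest signal among listed probes above background. All receptor probes described are named, each on its own, and 1 gene that the symbol rule finds is not reported here. In gene lists, up to 4 members with the smallest p are named, and a gene with several probes counts by its brightest. The receptors, lists and tests were chosen with earlier results of these data known. Symbols were brought up to date with RefSeq (GRCm38.p6), 1691 of 5838 by synonym or case. Alternatives were other filters, cyclic loess, an added 50, other variance models, array weights, only the compared groups, the suffix r arrays left out or as a covariate, and each array left out. The number of arrays limits the precision. Chip and scan were not analysed here.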

Additional observations from a re-analysis of the deposited data

Results flagged for a closer look

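In groups of 4 arrays, 3 of 30 combinations of probe and group had 1 array set apart from the other 3 by most of the group's range, where chance gives about 1 in 20. On day 3, WT replicate 3 was the lowest WT array for Cx3cr1, at an intensity of 112.63 against 147.5 to 152. KO replicate 8 was lowest for Ccr7, at 129.41 against 142 to 143. On day 1, replicate 5 of WT with M-CSF alone was lowest for Cxcr4, at 1854.7 against 2035 to 2054.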

How the results depend on the processing

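No receptor probe that was called changed sign or lost its call under any alternative run. Over single probes and alternatives, 1019 results kept their direction and side of the threshold, 18 that were not called in either setting turned sign (over 9 combinations of probe and comparison, 5 of the 18 for Cxcr6 in KO with PGE2 against WT), and 6 gained a call, 5 of them Cxcr4 under PGE2 in KO cells and 1 Ccr3 under NS398. For Cxcr4 these were array weights, only the compared groups, the suffix r as a covariate, and leaving out WT replicate 3 or WT replicate 4 (limma adjusted p 0.0268, 0.00455, 0.0355, 0.0497 and 0.0397). For Ccr3 it was leaving out NS398 replicate 13 (limma adjusted p 0.0484). The counts of called receptor probes ran from 2 to 3 for PGE2 and for NS398, and stayed at 6 for RANKL, 5 for KO against WT on day 1, 3 for KO with RANKL against M-CSF alone, 2 for KO against WT on day 3 and 0 for the other 2. The cause of the gained calls was not tested. No paired analysis was possible because the groups compared within an experiment share no replicate numbers. Several groups lie at background for Cx3cr1, Ccr3, Ccr7 and Cxcr6, which limits their folds to bounds.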
